A study of Mus musculus with 8 samples.

Results

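Egr1, Egr2, Egr3, Nr4a1, Fos, Fosb, Jun, Junb, Ier2 and Dusp1 are early response genes, and the 10 of them were examined among 39017 genes in B cells that had lost the arginine methyltransferase Prmt5. They were selected on the measured values of this same experiment, from a list of symbols whose Prmt5-null and control values had already been seen, so their values, and whether the comparison of all genes called them, are given as a description that supports no conclusion. The cells were iGBs, splenic B cells induced to take on a germinal center-like state by 4 days of culture on 40LB cells, a fibroblast line that displays CD40L and BAFF, with IL-4 at 1 ng per mL. Prmt5-null libraries came from 4 mice labelled PRMT5 FF Cgamma1-cre and control libraries from 4 mice with Cgamma1-cre alone, 1 mouse to a library and all of the C57BL6/J strain. Both genotypes carry the Cre, which is expressed once B cells are activated. The time at which Prmt5 was excised was not measured in these libraries. The study used mice of both sexes at 2 to 4 months of age, and the age and sex of each mouse are not given in the sources used here. B cells were parted from the feeder layer by elutriation before RNA was taken, and ribosomal RNA was depleted.

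Early response genes are transcribed within minutes of a stimulus, because the transcription factors that switch them on, among them SRF with its ETS partners and CREB, are already in the cell and are activated by kinases such as ERK. Many of their products are transcription factors themselves, and their mRNAs are typically short-lived, so their level follows recent signaling. In B cells they are induced through the antigen receptor and CD40, and Egr and Nr4a family members are widely read as marks of recent stimulation.

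The authors deposited read counts divided by a size factor for each library, here called normalized counts. In all 8 libraries 100% of the values were whole multiples of the worth of 1 read, which gave 42752293 to 47174851 reads on genes in the Prmt5-null and 36731721 to 50366174 in the control libraries. Genotypes were compared with limma on log2(normalized count + 1) over 16250 genes with a mean of at least 10, and calls needed an adjusted p below 0.05 together with a change of at least 1.5-fold. Fold changes are on this scale unless another test or setting is named, and the added 1 shrinks those of sparse genes. Of the genes tested, 567 (3.49%) were called higher and 486 (2.99%) lower in Prmt5-null iGBs, together 6.48%, and the median log2 fold change was 0.00.

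Prmt5 itself had 1291, 1994, 1060 and 1808 normalized counts in Prmt5-null libraries 10617, 10618, 10770 and 10771, and among controls 13087 in CTRL-10650, 11084 in CTRL-10370, 11657 in CTRL-10596 and 11267 in CTRL-10597. Every library therefore carried the Prmt5 level of its label. Library 10617 stood apart from the other Prmt5-null libraries in Fos and Fosb and was the lowest of its genotype for 7 of the 10 genes, with a median across the 10 genes of -1.16 (log2) relative to the control mean, against -0.41 in 10618, -0.98 in 10770 and -0.59 in 10771, so that over all 10 genes 10770 lay close to it. Results that rest on it are given with and without it. Cultures were set up in 2 experiments, but the labels do not say which mice belonged to which, so effects of experiment and of mouse cannot be told apart.

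All 10 genes passed the filter on low values and had a negative log2 fold change. Of the 10, 4 were called lower (Egr1, Nr4a1, Ier2 and Dusp1) and 0 higher, beside 2.99% of all genes called lower, and nothing is read from this count because the genes were chosen on this contrast. For 7 genes the highest Prmt5-null value was under the lowest control value, which was so for 10.2% of all genes tested, and for Egr2, Fosb and Jun the genotypes overlapped. The median log2 fold change was -0.95, and -0.74 in the 7 libraries without 10617, where Egr1, Ier2 and Dusp1 remained called and Nr4a1 did not (log2 fold change -0.86). Without library 10618, whose values were the highest of the Prmt5-null libraries for 6 of the genes, 7 were called lower, with Egr2, Egr3 and Fos added. In bulk RNA, fewer cells that express a gene and less RNA of it per cell cannot be told apart.

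**Figure D1:**
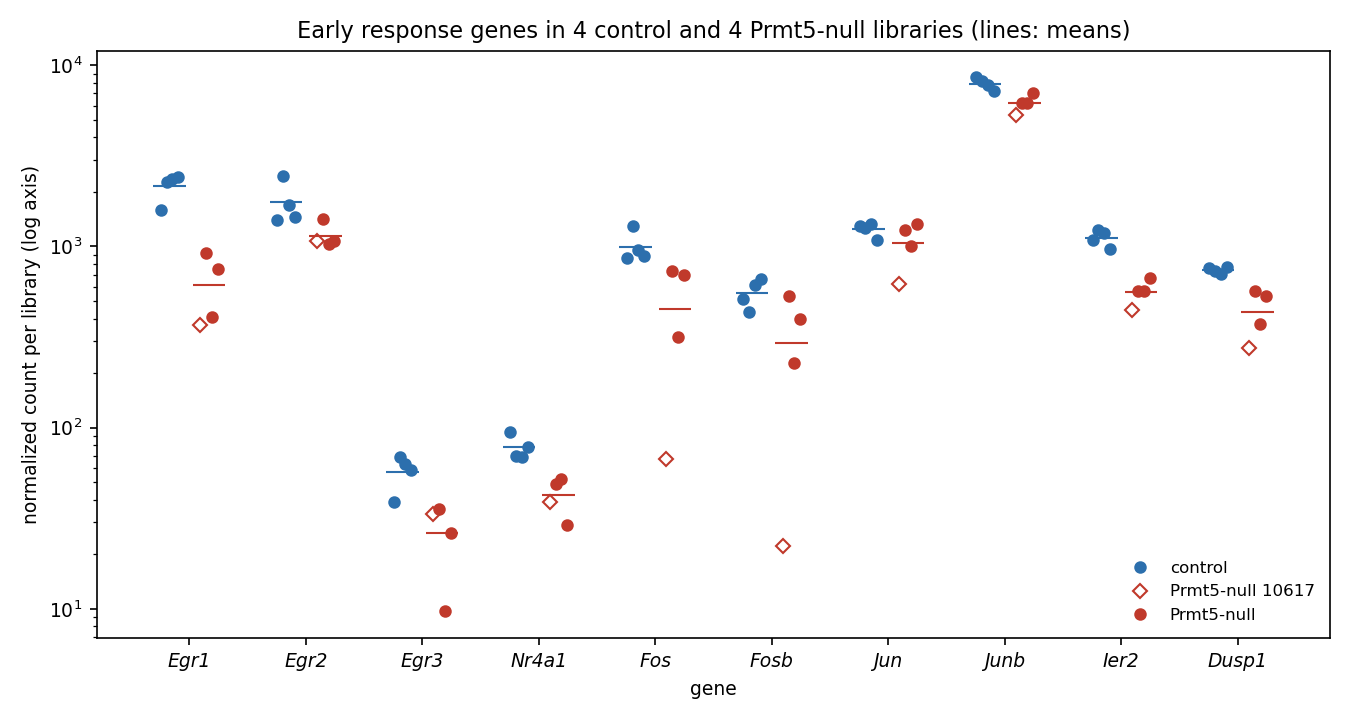
Normalized counts (log axis) of the 10 early response genes in each of 4 control (blue) and 4 Prmt5-null (red) libraries, 1 point per library, with lines at the group means and the Prmt5-null library 10617 as an open diamond. Egr1 lies between 367 and 924 in Prmt5-null and between 1595 and 2415 in control libraries, while Jun overlaps between the genotypes.

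Egr1, Egr2 and Egr3 encode zinc finger transcription factors that share a GC-rich recognition sequence. Egr1 (chromosome 18 from 34859823 to 34864984 of GRCm38, forward strand) had 367, 924, 406 and 755 normalized counts in Prmt5-null libraries and 1595, 2280, 2352 and 2415 in control libraries, in the order of libraries given for Prmt5. The highest Prmt5-null library was well below the lowest control library, CTRL-10650, which itself lay below the other controls. The mean was 613 ± 271 (SD, n = 4) against 2160 ± 381 (SD, n = 4), which is 28.4% of control and a log2 fold change of -1.91 (SE 0.26), the furthest from 0 among the 10. Without 10617 it was -1.70 (SE 0.25).

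Egr2, which in B cells acts with Egr3 to restrain activation, had 1073, 1422, 1034 and 1066 normalized counts in Prmt5-null and 1405, 2449, 1699 and 1450 in control libraries. Prmt5-null 10618 reached into the control range, and the other Prmt5-null libraries lay close together below it. The log2 fold change of -0.58 (SE 0.17) was just short of the 1.5-fold limit, and Egr2 was called lower by edgeR and DESeq2, which estimated -0.61 each. It was also called lower by limma without Prmt5-null 10618 (log2 fold change -0.69), CTRL-10650 (-0.68) or CTRL-10597 (-0.66), while without CTRL-10370, the highest control, the log2 fold change was -0.41. Egr3 was sparse, with 33.3, 35.7, 9.7 and 26.2 normalized counts in Prmt5-null and 38.8, 68.6, 62.7 and 58.1 in control libraries. The genotypes did not overlap, but the Prmt5-null 10618 and CTRL-10650 values were close, and the log2 fold change was -1.21 (SE 0.38). Egr3 was not called by limma as set up here or by edgeR. It was called lower by DESeq2, and by limma with a pseudocount of 5, with quantile normalization, in at least 1 placement of the experiments as a block, or without Prmt5-null 10618 (-1.40). Without Prmt5-null 10770, the lowest library, Egr3 was not called and the log2 fold change was -0.81.

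The EGR corepressors Nab1 and Nab2, which bind EGR proteins and dampen their activity, were both tested and neither was called by limma, edgeR or DESeq2. Both had an unadjusted p below 0.05, beside 29.3% of all genes tested. Nab1 had 7802 ± 217 normalized counts in Prmt5-null and 6889 ± 377 in control libraries (SD, n = 4 each), a log2 fold change of 0.18 (SE 0.07, limma adjusted p = 0.101) with no overlap of the genotypes. Nab2, itself an EGR target gene, had 284 ± 34.1 and 378 ± 71.2 (SD, n = 4 each), a log2 fold change of -0.40 (SE 0.16, limma adjusted p = 0.112), and CTRL-10597 at 277 fell among the Prmt5-null values.

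Nr4a1 encodes an orphan nuclear receptor that is induced by antigen receptor signaling. It had 38.9, 49.0, 51.9 and 29.0 normalized counts in Prmt5-null and 94.8, 69.5, 69.0 and 78.2 in control libraries. The genotypes did not overlap, and library 10617 was not the lowest here. The mean was 54.2% of control and the log2 fold change -0.89 (SE 0.23). The call was lost without Prmt5-null 10617 or 10771, and without CTRL-10650 or CTRL-10597, with a log2 fold change between -0.89 and -0.73 in these fits.

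Fos, Fosb, Jun and Junb encode subunits of AP-1, a dimer in which a Fos protein pairs with a Jun protein. Fos had 66.7, 733, 317 and 696 normalized counts in Prmt5-null and 869, 1290, 953 and 883 in control libraries. All Prmt5-null libraries lay below the controls, but they differed 11-fold among themselves against 1.48-fold among the controls. The log2 fold change was -1.61 (SE 0.58), and -0.85 (SE 0.26) without 10617, and Fos was not called by limma, edgeR or DESeq2 over the 8 libraries but was called lower by limma without 10618 (-2.0), and over the 8 libraries in at least 1 placement of the experiments as a block. Fosb had 22.2, 531, 228 and 397 normalized counts in Prmt5-null and 513, 435, 611 and 660 in control libraries. Its Prmt5-null libraries spanned 23.9-fold, with 10617 far below all others and 10618 within the control range. The log2 fold change of -1.58 (SE 0.74) became -0.59 (SE 0.25) without 10617.

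Jun, which can also pair with itself, had 623, 1239, 1005 and 1332 normalized counts in Prmt5-null and 1300, 1262, 1333 and 1090 in control libraries. Outside 10617 the genotypes overlapped, and the log2 fold change of -0.30 (SE 0.19) became -0.07 (SE 0.12) without that library. Junb, the most abundant of the 10 and a weaker activator than Jun, had 5348, 6205, 6228 and 7045 normalized counts in Prmt5-null and 8578, 8146, 7777 and 7190 in control libraries. The genotypes did not overlap, though Prmt5-null 10771 came close to CTRL-10597. The log2 fold change was -0.36 (SE 0.09), which is below the 1.5-fold limit, and -0.29 (SE 0.09) without 10617.

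Ier2 encodes a small nuclear protein of the immediate early response, and Dusp1 a phosphatase that inactivates the MAP kinases p38, JNK and ERK and so limits the signal that induces it. Ier2 had 446, 571, 565 and 668 normalized counts in Prmt5-null and 1084, 1240, 1190 and 969 in control libraries. The genotypes were clearly separated and each was tight. The mean was 50.2% of control, with a log2 fold change of -1.0 (SE 0.13), and -0.90 (SE 0.12) without 10617. Dusp1 had 274, 568, 374 and 532 normalized counts in Prmt5-null and 758, 736, 707 and 769 in control libraries. The controls spanned 1.09-fold and the Prmt5-null libraries 2.07-fold, without overlap. The log2 fold change was -0.82 (SE 0.19), and -0.62 (SE 0.14) without 10617.

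**Figure D2:**
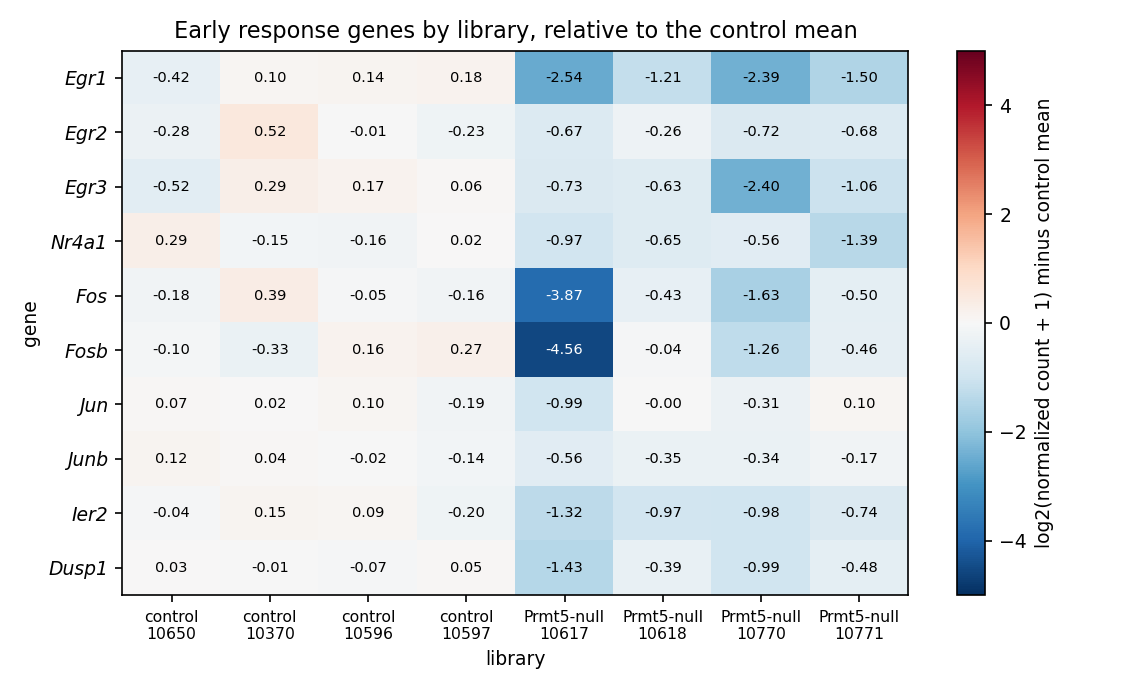
Each of the 10 early response genes (rows) in each library (columns), as log2(normalized count + 1) minus the mean of the 4 control libraries, with blue below and red above it. Prmt5-null 10617 holds the lowest values, -3.87 for Fos and -4.56 for Fosb, and Ier2 is between -1.32 and -0.74 in the Prmt5-null libraries.

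Levels of different genes were compared per 1000 bases of exon. In control iGBs Junb was highest at 3443 ± 255 normalized counts per 1000 bases (SD, n = 4), followed by Ier2 at 736 ± 79.0, Egr2 at 515 ± 142, Egr1 at 482 ± 84.9, Fos at 425 ± 84.0, Jun at 391 ± 33.9, Dusp1 at 224 ± 8.3, Fosb at 88.9 ± 16.1, Nr4a1 at 22.2 ± 3.4 and Egr3 at 12.9 ± 2.9. Egr2, Egr1, Fos and Jun did not differ from their neighbors in this order beyond the spread between mice, whereas Junb and Ier2 stood above and Dusp1, Fosb, Nr4a1 and Egr3 below them with gaps larger than their SDs. In Prmt5-null iGBs Junb was again highest at 2697 ± 301 (SD, n = 4), while Ier2 at 370 ± 59.6, Egr2 at 338 ± 53.8 and Jun at 329 ± 99.1 could not be ranked beyond the spread between mice, nor could Fos at 193 ± 136, Egr1 at 137 ± 60.5 and Dusp1 at 132 ± 41.4.

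Within the Prmt5-null libraries the genes did not all follow the same order. For 6 of the 10 genes (Egr1, Fos, Fosb, Jun, Ier2 and Dusp1) libraries 10618 and 10771 were the highest of the genotype, and these were also the 2 Prmt5-null libraries with the most Prmt5 reads. The same libraries had the highest share of mitochondrial transcripts of the genotype (0.901 and 0.759%, against 0.587 and 0.368% in 10617 and 10770). Their sums of feeder fibroblast markers were the lowest (8362 and 10115, against 14559 and 11626), and no such relation was tested. Egr2, Egr3, Nr4a1 and Junb had other orders. After each gene was centered within its genotype, the 45 pairs of genes had a median Pearson r of 0.47 over 8 libraries, with 32 pairs above 0, and 0.45 with 31 pairs above 0 over the 7 libraries without 10617. These near-equal medians hide pairs that depend on that library: without it Egr3 with Fos went from -0.01 to 0.93, Egr3 with Fosb from -0.14 to 0.79, and Egr1 with Egr3 from 0.53 to 0.98, then the highest pair, while Fosb with Ier2 went from 0.68 to -0.15 and Fosb with Junb from 0.64 to -0.20. Over the 8 libraries the highest was Fos with Jun (r = 0.96, Spearman's rho = 0.71), which fell to 0.74 without 10617. Fos with Dusp1 had r = 0.95 (rho = 0.62), and 0.85 without 10617, and Egr1 with Dusp1 r = 0.86 (rho = 0.90), and 0.82 without it. Nr4a1 and Egr3 each had a negative r with most of the others over the 8 libraries. For Nr4a1 it was -0.50 with Egr3, -0.38 with Ier2, -0.32 with Egr1, -0.09 with Fos and 0.06 with Fosb, which without 10617 were -0.50, -0.72, -0.49, -0.55 and -0.20. These correlations describe 8 libraries that differ in depth, culture and mouse, and no test was made of them.

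Among 12089 other genes with a mean of at least 100, those most like Egr1 across the 8 libraries were Adar, an RNA adenosine deaminase (r = 0.989, rho = 0.95), Gpr19, an orphan receptor (r = 0.987, rho = 1.00), Ythdc2, an RNA helicase that binds methylated adenosine (r = 0.982, rho = 0.95), Zfand5, a zinc finger protein (r = 0.979, rho = 0.95), and Limd1, a LIM domain scaffold (r = 0.979, rho = 0.83). These values carry the difference between the genotypes as well as the order within each. Without 10617 the r of these genes with Egr1 lay between 0.97 and 0.98. Gpr19, with 73, 114, 81 and 99 normalized counts in Prmt5-null and 143, 151, 160 and 184 in control libraries, followed the order of Egr1 library by library. Its log2 fold change was -0.80 (SE 0.18, limma adjusted p = 0.0112), and it was called lower, as was Ythdc2 at -0.64 (SE 0.12, limma adjusted p = 0.00401). Likeness to Egr1, which itself differed between the genotypes, selects genes that differ in the same way. These calls are therefore a description, and nothing is read from them. The Ythdc2 call was lost without Prmt5-null 10617 or 10770, and the log2 fold change ran from -0.72 to -0.56 with 1 library left out. Once genotype means were removed, the genes most like the mean of the 10 were Phf6, a chromatin reader (r = 0.997), Lpar6, a receptor for lysophosphatidic acid (r = 0.988), Nod2, a sensor of bacterial peptidoglycan (r = 0.982), Klf6, a zinc finger factor that is itself an early response gene (r = 0.980), and Nek7, a kinase (r = 0.979). Without 10617 the r, in the same order, were 0.98, 0.97, 0.94, 0.88 and 0.87. None of these 5 was called between the genotypes over the 8 libraries, and the limma adjusted p ran from 0.0975 for Nod2 to 0.99 for Nek7. Nod2 was called without 10617, and its log2 fold change ran from 0.37 to 0.64 with 1 library left out. Klf6 had 1175, 2333, 1706 and 2057 normalized counts in Prmt5-null libraries, with the same order as Fos and Fosb in 10617, 10770, 10771 and 10618.

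Most of the 10 genes are short, although Dusp1 is not and Nr4a1, with 20527 bases, is near the median of all genes. Their median span was 5287 bases with 2.5 introns at most in a transcript, against 23566 bases and 8.0 introns over 12493 protein-coding genes tested. Jun on chromosome 4 (95049034 to 95052222, reverse strand) and Ier2 on chromosome 8 (84661331 to 84662852, reverse strand) have 0 introns, and Dusp1, on chromosome 17 from 26505590 to 26562128, has the widest span because of distant annotated 5′ exons. Exons of Jun overlap the antisense gene Junos, those of Junb overlap Prdx2, and those of Dusp1 overlap Ergic1, each on the opposite strand. The strand setting of the counting is not given in the sources used here, so reads in these overlaps are uncertain.

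The pentamer ATTTA, the core of AU-rich elements by which proteins such as Zfp36 mark mRNAs for decay, was counted in the 3′ UTR of the transcript with the longest coding part. It was found in 9 of the 10 genes, all but Ier2, against 68.6% of 11743 protein-coding genes tested. The median density was 2.95 per 1000 bases against 1.31. Dusp1 had 4 matches in 690 bases, Nr4a1 3 in 543 and Fos 4 in 815, and Fosb only 1 in 2145. Any relation of this density to the fold change was not tested.

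RefSeq promoter windows of 300 bases (250 before and 50 after each start, build GRCm38.p6) were matched for 7 of the 10 genes in 11 windows. Egr1, Egr3 and Ier2 have no window here. On both strands they were searched for the CArG box that binds SRF (CC, then A or T throughout, then GG), for the AP-1 motif TGANTCA, the CRE bound by CREB (TGACGTCA), the EGR motif GCGNGGGCG and the ETS motif CCGGAAGT. Of 32851 windows, 1.63% held a CArG box, 7.81% the AP-1, 1.79% the CRE, 5.55% the EGR and 3.89% the ETS motif. In the windows of these genes a CArG box was found for Egr2, a CRE for Dusp1 and an EGR motif for Fosb and Nr4a1, and there was no AP-1 or ETS match. A match is a description of the letters and not evidence of binding.

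The stretches that hold a match are shown because they are the only ones of these genes in which a searched motif was found, with the matched bases in capitals and each read 5′ to 3′ on the strand of its gene. For Egr2, on the forward strand, 30 bases are given around each of 2 CArG boxes, which belong to different annotated starts (chr10:67537484-67537513 and chr10:67537787-67537816).
Egr2, upstream box: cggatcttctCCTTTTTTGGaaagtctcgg
Egr2, downstream box: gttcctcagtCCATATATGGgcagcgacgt
For Dusp1, on the reverse strand, 203 bases with the CRE are given (chr17:26508520-26508722).
Dusp1: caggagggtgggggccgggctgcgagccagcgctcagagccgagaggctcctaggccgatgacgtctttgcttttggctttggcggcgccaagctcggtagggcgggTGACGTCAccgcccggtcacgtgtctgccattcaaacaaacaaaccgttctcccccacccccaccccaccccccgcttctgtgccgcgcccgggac
For Nr4a1, on the forward strand, 250 bases are given (chr15:101266596-101266845), and the EGR motif lies on the opposite strand.
Nr4a1: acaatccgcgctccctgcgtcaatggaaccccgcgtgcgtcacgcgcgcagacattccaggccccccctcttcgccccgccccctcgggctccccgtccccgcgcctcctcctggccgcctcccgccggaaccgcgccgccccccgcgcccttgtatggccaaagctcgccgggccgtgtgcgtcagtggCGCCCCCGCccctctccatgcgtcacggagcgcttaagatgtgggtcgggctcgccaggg
For Fosb, on the reverse strand, 244 bases are given (chr7:19310052-19310295).
Fosb: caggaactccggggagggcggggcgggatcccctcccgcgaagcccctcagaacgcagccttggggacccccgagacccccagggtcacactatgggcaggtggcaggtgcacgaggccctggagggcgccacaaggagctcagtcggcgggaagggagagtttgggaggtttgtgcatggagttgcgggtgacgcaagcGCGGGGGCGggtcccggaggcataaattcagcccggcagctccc

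Other genes of the same families, EGR corepressors, other early response genes, signaling genes upstream and heat shock genes were examined as 7 lists. Together they are called pathway genes here, with 127 tested. Of these 127, 7 were called, 4 higher and 3 lower, beside 6.48% of all genes called in either direction. Their median log2 fold change was -0.09. The count was 13 without Prmt5-null 10618, and 4 without Prmt5-null 10770 or CTRL-10596. All 7 calls were in the list of other early response genes, with 41 of 44 tested and a median of -0.17. Among the called genes, Plk2, a polo-like kinase induced by stress and serum, had 2257, 3401, 2539 and 3088 normalized counts in Prmt5-null and 1304, 1266, 1481 and 1537 in control libraries. It rose with a log2 fold change of 1.00 (SE 0.13, limma adjusted p = 0.00042), higher in all Prmt5-null libraries than in any control. Ier5l, a relative of Ier2, and Tnfaip3, an inhibitor of NF-κB signaling that NF-κB induces, rose as well, with log2 fold changes of 0.89 (SE 0.17, limma adjusted p = 0.00545) and 0.65 (SE 0.08, limma adjusted p = 0.00034) and without overlap of the genotypes.

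Hes1, a repressor induced by Notch, fell with a log2 fold change of -0.96 (SE 0.27, limma adjusted p = 0.0362), with Prmt5-null libraries at 31.5 to 78.5 and controls at 94.1 to 127 normalized counts. Its call held in 2 of the 8 fits without 1 library, those without Prmt5-null 10618 or 10771, and was lost without Prmt5-null 10617 or 10770 or any 1 control, and the log2 fold change ran from -1.12 to -0.69. Zfp36, an RNA-binding protein that speeds the decay of AU-rich mRNAs, had 1355, 2831, 1134 and 1957 normalized counts in Prmt5-null and 2558, 3473, 3743 and 3156 in control libraries, a log2 fold change of -0.91 (SE 0.23, limma adjusted p = 0.0240) with Prmt5-null 10618 inside the control range. It was not called by DESeq2, nor by limma without Prmt5-null 10617 or without CTRL-10370, CTRL-10596 or CTRL-10597, and its log2 fold change ran from -1.15 to -0.71 with 1 library left out. The remaining called genes of the list, Zfp36l2 (lower) and Nfkbia (higher), were named after their values were seen.

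The other EGR, NR4A and AP-1 family genes gave 0 calls among 12 tested of 14 with limma, with a median of -0.17. The count was 2 without CTRL-10650, and 1 without Prmt5-null 10618, Prmt5-null 10771 or CTRL-10597. At an unadjusted p below 0.05 there were 5, beside 29.3% of all genes tested, and edgeR and DESeq2 called 1 each, which was Batf, an AP-1 partner required for class switching, singled out after its values were seen. Batf was higher, with 6162, 4791, 7733 and 5102 normalized counts in Prmt5-null and 4281, 3733, 3539 and 4127 in control libraries, a log2 fold change of 0.58 (SE 0.13, limma adjusted p = 0.0141) just under the 1.5-fold limit. Egr4 and Batf2 were below the filter on low values, and the largest Egr4 value in any library was 10.7.

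The signaling genes upstream gave no calls with limma, edgeR or DESeq2 over the 8 libraries at the 1.5-fold limit. With no minimum fold change limma called 5 of the ERK cascade, SRF and CREB genes and 1 of the JNK and p38 cascade. It then also called 2 of the MAPK phosphatases and feedback inhibitors, beside 2249 of all 16250 genes tested. Counts at an unadjusted p below 0.05 are to be read beside the same 29.3%. Of 33 genes of the ERK cascade and of the SRF and CREB factors, 0 were called and 11 had an unadjusted p below 0.05, with a median of -0.03 and a range from -0.40 to 0.54, and 1 was called without CTRL-10650. Of 12 genes of the JNK and p38 cascade, 0 were called and 4 had an unadjusted p below 0.05, with a median of -0.07. Of 15 MAPK phosphatases and feedback inhibitors of ERK other than Dusp1, 0 were called and 6 had an unadjusted p below 0.05, with a median of -0.11 and a lowest value of -0.54, and 1 was called without Prmt5-null 10618 or CTRL-10597. Transcript levels of these genes do not measure the activity of their proteins. Of 12 heat shock genes, 0 were called and 2 had an unadjusted p below 0.05, with a median of 0.01 and a range from -0.64 to 0.36. The 13 heat shock genes in the table, 1 of them untested, summed to 235587 ± 29335 normalized counts in Prmt5-null and 231820 ± 11022 in control libraries (SD, n = 4 each). The most abundant of them made up 38.6% of the sum, so near-equal sums do not mean that each gene was equal.

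**Figure D3:**
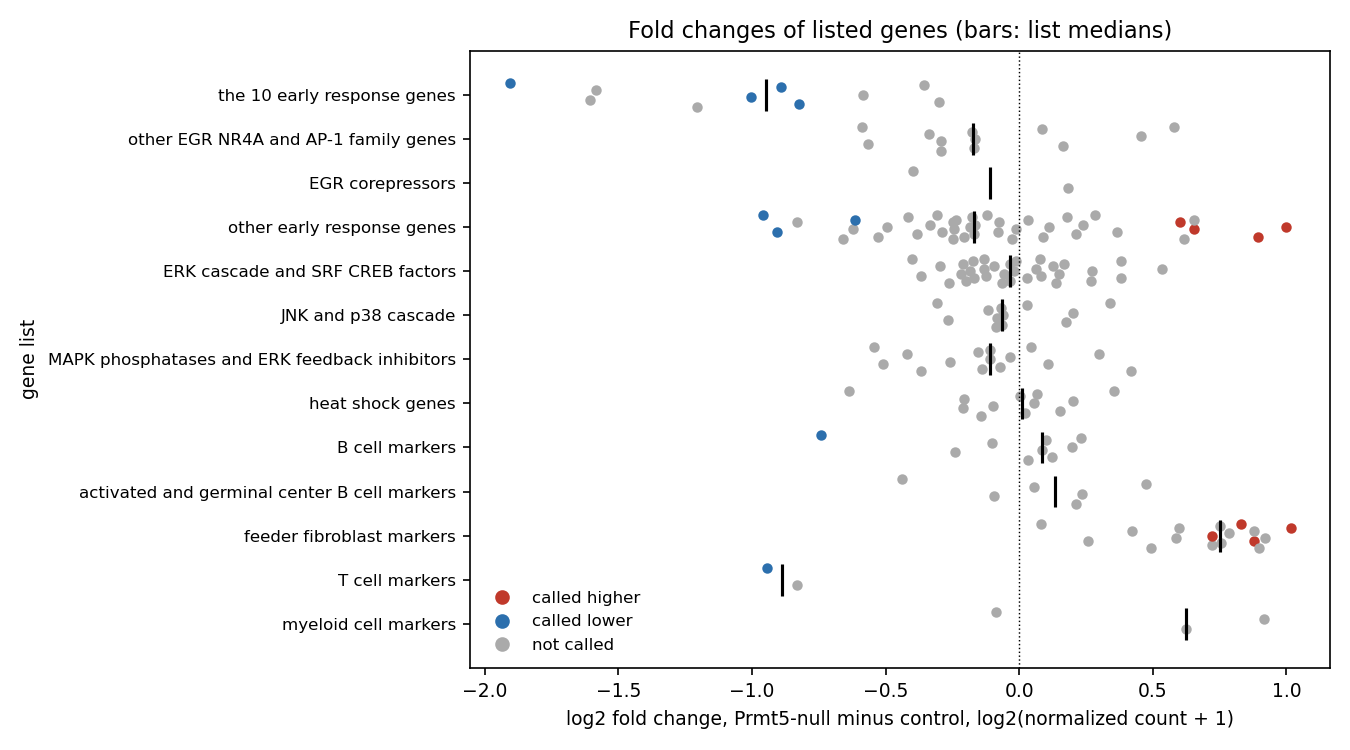
Log2 fold changes (Prmt5-null minus control, horizontal axis) of every tested gene of each list, 1 point per gene, in red where called higher, blue where called lower and grey otherwise, with a bar at the list's median and a dotted line at the median of all genes. The 10 early response genes lie from -1.91 to -0.30, and the 17 feeder fibroblast markers from 0.08 to 1.02.

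Markers of the cells in the culture were set beside these values. The 9 B cell markers summed to 180456 ± 16009 normalized counts in Prmt5-null and 180019 ± 10839 in control libraries (SD, n = 4 each), and 1 of 9 was called, beside 6.48% of all genes, namely Cd79a, part of the antigen receptor, at a log2 fold change of -0.74 (SE 0.09, limma adjusted p = 0.000327). The 6 markers of activated and germinal center B cells, of which Ighg1 was the most abundant, gave 0 calls with limma, edgeR or DESeq2 and 3 with an unadjusted p below 0.05, beside 29.3% of all genes tested. Their sum was 131052 ± 9689 in Prmt5-null and 130671 ± 9608 in control libraries (SD, n = 4 each). The log2 fold changes of the 6 ran from -0.44 to 0.47, so a near-equal sum does not mean that each gene was equal.

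Of 17 feeder fibroblast markers tested, 4 were called higher (Col3a1, Col5a2, Sparc and Col1a2, all genes of the extracellular matrix) and 0 lower, beside 3.49% of all genes called higher, and the median was 0.75. The 19 markers in the table summed to 14559, 8362, 11626 and 10115 normalized counts in Prmt5-null libraries 10617, 10618, 10770 and 10771, and to 9455, 5502, 6759 and 8063 in control libraries, in the order given for Prmt5. Col1a2 was the most abundant, with 23.9% of the sum, and no marker was at 0 in all libraries. The sum was therefore highest in 10617, the library with the lowest Egr1, Fos and Fosb, and lowest among the Prmt5-null libraries in 10618, and CTRL-10650, the lowest control for Egr1, had the highest sum of the controls. The ratio of the means was 1.5, and 1.35 without 10617. Without 10617, and likewise without CTRL-10370 or CTRL-10596, only 1 of the 4 markers was called, Col3a1, and without CTRL-10650 there were 7. This order did not hold throughout, since Prmt5-null 10618 had a lower sum than CTRL-10650 and also less Egr1, and CTRL-10650 had the most Nr4a1 and Junb of all libraries. The part of feeder RNA in the early response values was not tested.

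The 9 T cell markers summed to 486, 447, 374 and 332 normalized counts in Prmt5-null and 698, 779, 812 and 775 in control libraries. Lck, a Src family kinase that B cells can also express, made up 94.7% of the sum and was called lower at a log2 fold change of -0.94 (SE 0.13, limma adjusted p = 0.000852), while Cd3e was at 0 in all libraries. Of the 9 markers, 2 were tested. The one beside Lck, at a log2 fold change of -0.83 (SE 0.36, limma adjusted p = 0.152), was not called. Both had an unadjusted p below 0.05, beside 29.3% of all genes tested. The 9 myeloid markers in the table summed to 562, 726, 543 and 633 in Prmt5-null and 605, 655, 602 and 619 in control libraries. Cd68 made up 88.3% of this sum, and S100a8 and S100a9 were at 0 throughout. Of 3 tested, 0 were called by limma, edgeR or DESeq2, beside 6.48% of all genes called by limma. At an unadjusted p below 0.05 there were 0, beside 29.3% of all genes tested. Log2 fold changes of the 3 ran from -0.09 to 0.92, and nothing is read from so few genes. Transcripts of the mitochondrial genome took 0.587, 0.901, 0.368 and 0.759% of the normalized counts in Prmt5-null and 0.943, 0.665, 0.714 and 0.915% in control libraries. Prmt5-null 10618 and 10771, highest of their genotype in this share, were also the 2 highest for 6 of the 10 genes. Prmt5-null 10770, lowest in this share, was lowest for Egr2 and Egr3 as well. The order did not hold throughout, since 10617 was lowest of its genotype for 7 of the 10 genes but not in this share. The role of RNA quality was not tested.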

How the data were processed

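RNA-seq of 4 Prmt5-null and 4 control iGB cultures, each from 1 mouse, was used. The authors trimmed reads with Trimmomatic 0.32, aligned them to GRCm38 with STAR 2.3.0e, counted uniquely mapped reads on Ensembl exons with featureCounts 1.4.4 and deposited a gene signal, each count divided by its library's DESeq2 1.14.1 size factor. From this, whole reads were recovered (tolerance 0.1 read). Genotypes were compared with limma 3.58.1 in R 4.3.3 (pseudocount 1, mean of at least 10, Benjamini-Hochberg over all genes tested), with edgeR 4.0.16 and DESeq2 1.42.0 on the recovered reads as alternatives. Positions, exonic lengths and 3′ UTRs came from GENCODE M21 of GRCm38 and promoters from RefSeq, read in Python 3.11.15. Mafg and Ebf1 have 2 rows in the table, and the row with the annotated identifier was used. The early response genes and the lists were chosen with earlier results of these data known. Besides the 10, the genes named are at most the 5 called genes with the largest change of each list, lists of up to 3 genes in full, the most abundant gene of each marker list (for the B cell markers it is not reported here), and the 5 most like Egr1 and most like the mean of the 10. Batf, Egr4, Batf2, Zfp36l2, Nfkbia and listed markers at 0 are named beyond this rule, chosen after their values were seen.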

Additional observations from a re-analysis of the deposited data

Results flagged for a closer look

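Of 88 groups of 4 libraries tested for a library far from the rest of its genotype, 2 stood out, and chance alone gives about 1 in 20 groups. CTRL-10650 had 1595 normalized counts of Egr1, while the other controls had 2280 to 2415. Prmt5-null 10618 had 1422 normalized counts of Egr2, while the other Prmt5-null libraries had 1034 to 1073. The low Fos and Fosb values of Prmt5-null 10617 were not among them.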

How the results depend on the processing

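Of 21 alternatives, 18 left the count of early response genes called lower within 1.5 times the main count of 4. An adjusted p below 0.01 gave 2 such genes, 637 genes in all and 0 feeder markers, and a minimum change of 2-fold gave 2, 396 in all, 0 of the 127 pathway genes and 1 feeder marker. With no minimum fold change 2249 genes and 18 pathway genes were called. Feeder markers called went from 4 to 2 without the trend and to 8 with DESeq2, and with the experiment as a block they ranged from 2 to 9 over 18 placements. With each library left out in turn, 792 to 1170 genes were called, 3 to 7 of the early response genes, 4 to 13 pathway genes and 1 to 7 feeder markers. The 7 early response genes and the 13 pathway genes came without Prmt5-null 10618, the 7 feeder markers without CTRL-10650, and the 4 pathway genes without Prmt5-null 10770 or CTRL-10596. The cause was not tested. An adjusted p below 0.01 and a minimum of 2-fold each removed the calls of Nr4a1 and Dusp1, and no minimum fold change added Egr2 and Junb. Under the alternatives that refit the values or change the libraries, all 179 log2 fold changes of the 10 genes stayed negative. They include estimates by edgeR, DESeq2, other pseudocounts and quantile normalization. The filters, the fit without the trend and the experiment block cannot move a log2 fold change here. Since the genes were also chosen on this contrast, nothing is read from the signs. Of the 179, 162 left the gene called or not called as before, 12 gained a call and 5 lost one, all 5 for Nr4a1. With the experiment as a block 4 to 6 of the 10 were called lower. Fosb ran from -2.09 to -0.59. No paired analysis was made, because the labels do not say which mice of the 2 genotypes shared an experiment.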
